A study of Homo sapiens with 6 samples.

Results

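The human mitochondrial genome encodes 37 genes, and every one of them had a row in the count table, where they were recognised by a symbol that starts with MT- and a position on the mitochondrial chromosome (37 of 36517 genes). They comprise 13 protein-coding genes, 2 ribosomal RNA (rRNA) genes and 22 transfer RNA (tRNA) genes. The annotation lists 28 genes as +, called heavy-strand genes here. The other 9 are listed as - and called light-strand genes, namely MT-ND6 and 8 tRNA genes. Libraries of mRNA were made from the breast cancer line MDA-MB-453 at day 3, in 2 groups of 3. Control cells carried a lentivirus with a negative-control hairpin (shNC), and shtRF cells carried a lentivirus with a hairpin against tRF-1-Ser, a small RNA cut from the 3′ trailer of a nuclear-encoded serine tRNA precursor. All cells of both groups were therefore transduced, with 1 hairpin named per group. The replicates are described as biological, but whether they were separate transductions or cultures is not given, so p-values measure the spread between these libraries, part of which may be technical. The comparison addresses how RNA from the mitochondrial genome differed once tRF-1-Ser was targeted. The hairpin's target is not measured in these libraries.

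Both strands of mitochondrial DNA are copied into long RNAs that run through many genes. The tRNAs lie between most of the rRNA and protein-coding genes, and cutting them out at both ends, by the mitochondrial RNase P and by ELAC2, also frees the RNAs on either side. All the proteins encoded there are subunits of respiratory complexes I, III and IV or of ATP synthase. Everything else these organelles need, from the RNA polymerase to the other subunits, comes from the nucleus.

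Library totals lay between 63541413 and 78917459 counts. Of the markers of MDA-MB-453, ERBB2, KRT8, KRT18, EPCAM, FOXA1 and SPDEF were detected, with 75.9 CPM (counts per 1000000, TMM-scaled) for SPDEF as the lowest group mean, whereas ESR1 and PGR stayed at or below 0.387 CPM in every library. Of 6 markers of other cell types, PTPRC, PECAM1, COL1A2, KRT5 and KRT14 were each at most 0.318 CPM in any library, and COL1A1 was at 32.2 ± 2.87 CPM in control and 20.9 ± 0.329 CPM in shtRF cells. Each of the 37 mitochondrial genes passed the filter on low counts. Differential expression was tested with edgeR's quasi-likelihood test with Benjamini-Hochberg adjustment over the 19628 genes tested, and a gene is called higher or lower where the adjusted p was under 0.05. Standard errors (SE) belong to log2 fold changes, shtRF over control, and standard deviations (SD, n = 3) to levels and shares.

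In shtRF cells 14 of the 22 mitochondrial tRNA rows rose, 12 of them on the heavy strand, while the called changes of protein-coding rows went in both directions. Of the 37 genes, 19 were called higher, 4 lower and 14 neither, against 39.5% of all genes tested that were called (20.6% higher and 18.9% lower). Among the 22 tRNA genes 14 were called higher and 1 lower, and 7 of them rose more than 2-fold, a change that 2.66% of all genes tested showed in that direction. Adjacent tRNA rows can share reads, so these counts are not counts of separate observations. Among the 13 protein-coding genes 5 were higher and 2 lower, none beyond 2-fold, and no mitochondrial gene fell more than 2-fold, as 3.11% of all genes tested did. Without control replicate 2 or without shtRF replicate 3, only 1 protein-coding gene was called lower. Of the rRNAs, MT-RNR1 was lower and MT-RNR2 was not called. The median log2 fold change was 0.43 over the tRNA genes and 0.13 over the protein-coding genes, beside -0.0025 over all genes tested. The groups did not overlap for 17 genes that lay higher and 4 that lay lower in shtRF cells, against 24.9% and 23.8% of all genes tested.

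**Figure D1:**
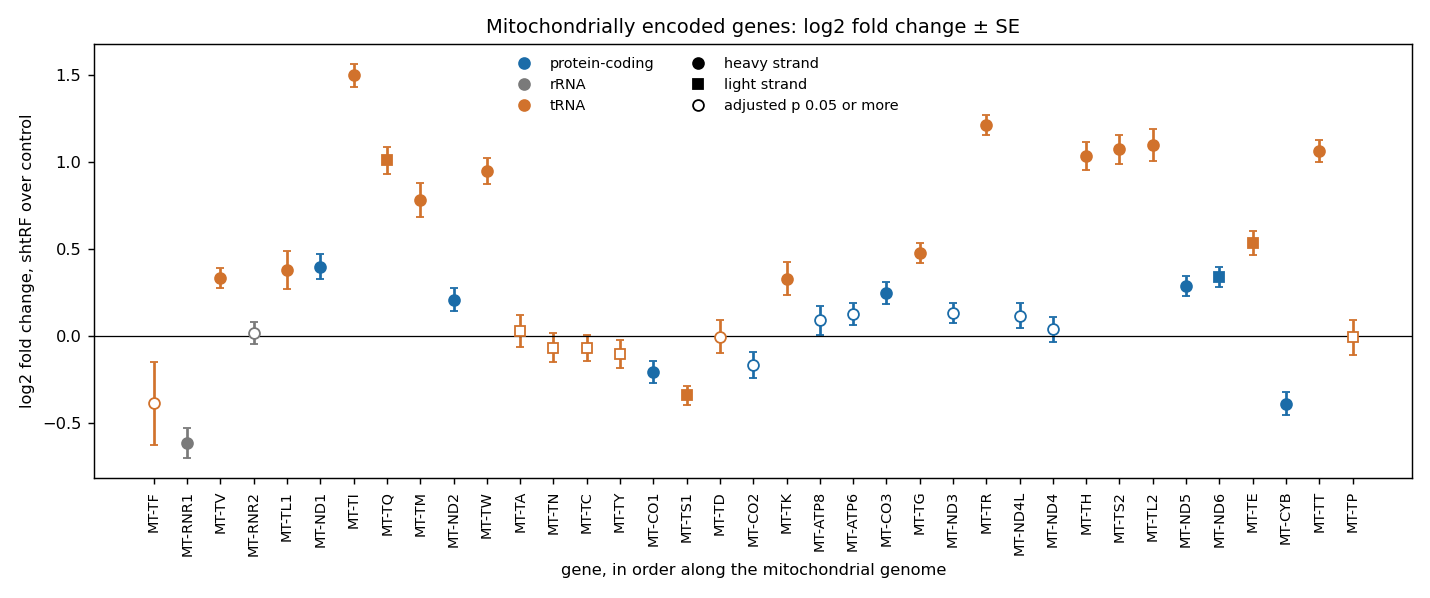
Log2 fold change, shtRF over control, with its SE for the 37 mitochondrial genes in their order along the genome (x axis). Colour gives the RNA class and shape the strand, circles for heavy and squares for light, and filled symbols mark an adjusted p under 0.05. The highest points are tRNA genes, up to 1.50 for MT-TI, and the lowest point is MT-RNR1 at -0.62.

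The tRNA genes that rose more than 2-fold are shown first, followed by 2 light-strand tRNA genes for contrast, MT-TA, which was not called, and MT-TS1, the only tRNA gene called lower. Sequences are the GENCODE release 29 transcripts on GRCh38, 5′ to 3′ as DNA, with the anticodon in capitals.
MT-TI (MT:4263-4331, + strand): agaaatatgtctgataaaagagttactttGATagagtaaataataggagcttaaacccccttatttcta
MT-TQ (MT:4329-4400, - strand): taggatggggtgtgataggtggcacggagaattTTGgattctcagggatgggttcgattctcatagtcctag
MT-TR (MT:10405-10469, + strand): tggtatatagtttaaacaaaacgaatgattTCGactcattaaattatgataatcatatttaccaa
MT-TH (MT:12138-12206, + strand): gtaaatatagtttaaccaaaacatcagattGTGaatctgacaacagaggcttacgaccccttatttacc
MT-TS2 (MT:12207-12265, + strand): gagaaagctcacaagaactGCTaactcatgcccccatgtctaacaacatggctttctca
MT-TL2 (MT:12266-12336, + strand): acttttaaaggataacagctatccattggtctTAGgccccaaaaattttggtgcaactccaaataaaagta
MT-TT (MT:15888-15953, + strand): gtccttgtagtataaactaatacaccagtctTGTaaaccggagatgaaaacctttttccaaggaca
MT-TA (MT:5587-5655, - strand): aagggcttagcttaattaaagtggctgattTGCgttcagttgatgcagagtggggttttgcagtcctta
MT-TS1 (MT:7446-7514, - strand): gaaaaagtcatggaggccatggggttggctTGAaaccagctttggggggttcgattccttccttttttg
These tRNAs carry isoleucine (MT-TI), glutamine (MT-TQ), arginine (MT-TR), histidine (MT-TH), serine (MT-TS2 and MT-TS1), leucine (MT-TL2), threonine (MT-TT) and alanine (MT-TA). MT-TH, MT-TS2 and MT-TL2 follow each other without a gap, and MT-TI and MT-TQ lie on opposite strands and share 3 bases at their ends. MT-TS1 and MT-TS2 are mitochondrial serine tRNAs, distinct genes from the nuclear serine tRNA whose precursor gives rise to tRF-1-Ser.

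MT-TI showed the largest rise of all mitochondrial genes. It was measured at 40.2, 32.99 and 34.97 CPM in the control libraries and 99.4, 98.7 and 108 CPM in the shtRF libraries (log2 fold change 1.50 ± 0.067 SE, adjusted p = 1.06e-13). Every shtRF library exceeded every control library by more than 2-fold. MT-TQ, its light-strand neighbour, was at 16.9, 15.01 and 13.9 CPM in the control libraries and 28.7, 31.7 and 31.98 CPM in the shtRF libraries (log2 fold change 1.01 ± 0.078 SE, adjusted p = 7.42e-10). Here too the groups lay well apart. MT-TM, the methionine tRNA that follows, was at 9.62, 9.78 and 7.48 CPM in the control libraries and 14.6, 15.6 and 15.997 CPM in the shtRF libraries (log2 fold change 0.78 ± 0.10 SE, adjusted p = 1.12e-06), and MT-TW, the tryptophan tRNA behind MT-ND2, at 13.7, 13.98 and 12.8 CPM in the control libraries and 26.2, 24.7 and 27.3 CPM in the shtRF libraries (log2 fold change 0.95 ± 0.073 SE, adjusted p = 7.73e-10). Neither overlapped between the groups, and both stayed short of 2-fold on the fitted scale.

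MT-TR, which sits between MT-ND3 and MT-ND4L, was at 85.7, 77.5 and 80.5 CPM in the control libraries and 179, 189.8 and 198 CPM in the shtRF libraries (log2 fold change 1.22 ± 0.057 SE, adjusted p = 2.43e-13). The 3 adjacent tRNA genes between MT-ND4 and MT-ND5 rose by similar amounts. They abut without a gap, and a read pair across them appeared to be credited to each. Their similar changes are therefore not 3 separate observations. MT-TH was at 97.1, 93.3 and 71.9 CPM in the control libraries and 183, 185 and 169 CPM in the shtRF libraries (log2 fold change 1.04 ± 0.079 SE, adjusted p = 7.28e-10). MT-TS2 was at 85.8, 85.3 and 63.05 CPM in the control libraries and 166, 170.4 and 156.3 CPM in the shtRF libraries (log2 fold change 1.08 ± 0.082 SE, adjusted p = 7.42e-10). MT-TL2 was at 54.6, 58.6 and 40.03 CPM in the control libraries and 109, 116 and 103 CPM in the shtRF libraries (log2 fold change 1.10 ± 0.091 SE, adjusted p = 2.65e-09). In each of these 3 genes control replicate 3 was the lowest library, and the lowest shtRF library was nonetheless above the highest control library. MT-TT, downstream of MT-CYB, was at 18.2, 17.6 and 18.3 CPM in the control libraries and 35.5, 38.1 and 39.5 CPM in the shtRF libraries (log2 fold change 1.06 ± 0.065 SE, adjusted p = 1.91e-11), with the tightest control values among the tRNA genes that passed 2-fold.

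Smaller rises were called for 5 further tRNA genes. MT-TG (glycine) was at 192, 197 and 172 CPM in the control libraries and 252, 267 and 261 CPM in the shtRF libraries (log2 fold change 0.48 ± 0.058 SE, adjusted p = 7.17e-07). MT-TE, the light-strand glutamate tRNA, was at 27.3, 24.1 and 23.7 CPM in the control libraries and 39.1, 35.97 and 33.8 CPM in the shtRF libraries (log2 fold change 0.54 ± 0.071 SE, adjusted p = 2.36e-06). MT-TV (valine), between the rRNA genes, was at 76.2, 69.9 and 67.9 CPM in the control libraries and 88.1, 87.1 and 94.4 CPM in the shtRF libraries (log2 fold change 0.33 ± 0.057 SE, adjusted p = 7.00e-05). The groups did not overlap for these 3 genes. MT-TL1, the leucine tRNA behind MT-RNR2, was at 13.3, 15.7 and 11.3 CPM in the control libraries and 20.1, 17.2 and 14.9 CPM in the shtRF libraries (log2 fold change 0.38 ± 0.11 SE, adjusted p = 0.00833). MT-TK (lysine) was at 115, 142 and 132 CPM in the control libraries and 202, 139 and 149 CPM in the shtRF libraries (log2 fold change 0.33 ± 0.10 SE, adjusted p = 0.00904). For MT-TL1 and MT-TK the groups overlapped, and both calls rested on shtRF replicate 1, without which the adjusted p was 0.102 and 0.146. For MT-TK the call was also lost without control replicate 1 (adjusted p = 0.0861) and with DESeq2 (adjusted p = 0.18). With limma-trend neither MT-TL1 nor MT-TK was called (adjusted p = 0.15 and 0.28).

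MT-TS1 was the tRNA gene that fell, with 98.2, 91.6 and 103 CPM in the control libraries and 76.5, 79.3 and 75.3 CPM in the shtRF libraries (log2 fold change -0.34 ± 0.056 SE, adjusted p = 3.59e-05), and its groups did not overlap. It lies opposite the stretch downstream of MT-CO1, and per 100 MT-CO1 counts its counts were 1.14 ± 0.139 in control and 1.04 ± 0.0553 in shtRF cells, with overlapping groups. Of the other light-strand tRNA genes 5 were not called. MT-TA, MT-TN, MT-TC and MT-TY, a run of 4 genes between MT-ND2 and MT-CO1 that carry alanine, asparagine, cysteine and tyrosine, had log2 fold changes of 0.03 ± 0.093, -0.07 ± 0.085, -0.07 ± 0.075 and -0.10 ± 0.078 SE, with adjusted p from 0.317 to 0.859. In all of them control replicate 2 was the highest library, and without it MT-TA was higher in shtRF cells (log2 fold change 0.21, adjusted p = 0.0159). MT-TP, the proline tRNA, had a log2 fold change of -0.01 (adjusted p = 0.962). Of the heavy-strand tRNA genes, MT-TD (aspartate) had a log2 fold change of -0.0044 (adjusted p = 0.979) and MT-TF (phenylalanine) one of -0.39 (adjusted p = 0.216). MT-TF had the lowest counts of all mitochondrial genes, at 2.18, 2.24 and 1.69 CPM in the control libraries and 2.35, 1.18 and 1.11 CPM in the shtRF libraries. Without shtRF replicate 1, its highest library, MT-TF was called lower (log2 fold change -0.83, adjusted p = 0.00681).

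**Figure D2:**
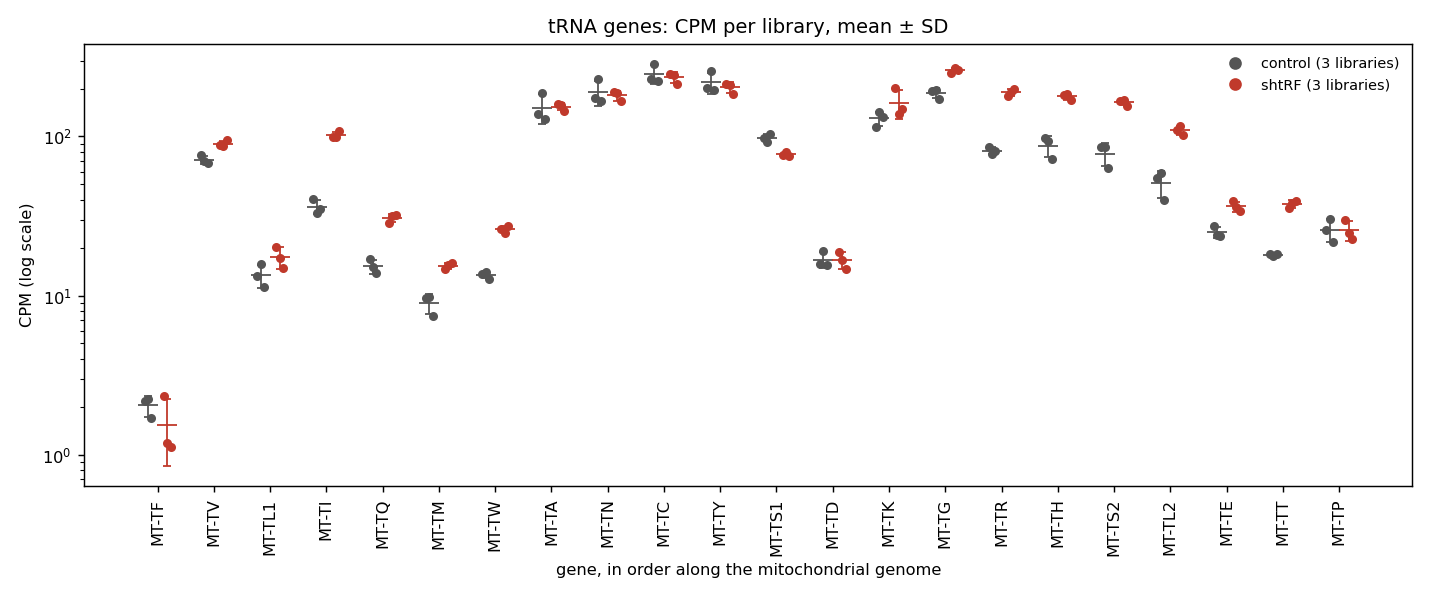
CPM on a log scale for the 22 mitochondrial tRNA genes in genome order. Each point is 1 library, control in grey and shtRF in red, with a dash for the mean and bars for the SD over 3 libraries. The red points lie clear above the grey for MT-TI, MT-TR, MT-TH, MT-TS2, MT-TL2, MT-TQ and MT-TT, and among the grey for MT-TA to MT-TY.

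By strand, 12 of the 14 heavy-strand tRNA genes were called higher and none lower (median log2 fold change 0.87; 1 lower, MT-TF, without shtRF replicate 1), and 6 of them rose more than 2-fold. Of the 8 light-strand tRNA genes 2 were higher, 1 lower and 5 not called (median -0.04). Those not called include the run MT-TA, MT-TN, MT-TC and MT-TY, whose rows can share reads and are not separate observations. The same holds for MT-TH, MT-TS2 and MT-TL2 on the heavy strand. Of all genes tested, 20.6% were higher and 18.9% lower. Heavy-strand tRNA genes took 0.0834, 0.0856 and 0.0738% in the control and 0.141, 0.131 and 0.132% in the shtRF libraries, a 1.66-fold higher mean share of all counts, without overlap. Light-strand tRNA genes took 0.0929, 0.115 and 0.0887% in the control and 0.0994, 0.0930 and 0.0854% in the shtRF libraries, and these ranges overlapped. The run MT-TA, MT-TN, MT-TC and MT-TY held most of it, with 0.0140, 0.0178, 0.0234 and 0.0206% in control replicate 1. The light-strand values therefore describe mainly that run. Per 100 protein-coding counts, however, light-strand tRNA genes had 1.69, 1.94 and 1.71 in the control and 1.60, 1.63 and 1.62 in the shtRF libraries, lower without overlap, whereas heavy-strand tRNA genes had 1.51, 1.44 and 1.43 in the control and 2.27, 2.31 and 2.50 in the shtRF libraries. Whether the strands differ in their response was not tested, since that would be a test of a score over the members.

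The tRNA rows were also set against the longer genes beside them, in counts. For every 100 counts of the mean of MT-ND1 and MT-ND2, MT-TI had 2.20 ± 0.339 in control and 5.14 ± 0.557 in shtRF cells. For every 100 counts of the mean of MT-ND3 and MT-ND4L, MT-TR had 4.66 ± 0.513 in control and 10.004 ± 1.46 in shtRF cells. Relative to the mean of MT-ND4 and MT-ND5, MT-TH, MT-TS2 and MT-TL2 together went from 2.87 to 5.34 per 100, and MT-TT went from 0.843 to 2.31 per 100 MT-CYB counts. None of these 4 ratios overlapped between the groups. They were formed for tRNA genes that rose past 2-fold in the same libraries, so separation was likely beforehand. MT-CYB itself fell (log2 fold change -0.39), so part of the MT-TT ratio comes from its lower denominator. MT-TA, MT-TN, MT-TC and MT-TY together had 14.7 ± 1.44 in control and 15.3 ± 0.320 in shtRF cells per 100 of the mean of MT-ND2 and MT-CO1, with overlap. The log2 fold change of the tRNA gene was above that of each nearest rRNA or protein-coding gene for 13 of 14 heavy-strand tRNA genes, with MT-TL1 as the exception, and for 3 of 8 light-strand ones, MT-TQ, MT-TE and MT-TP. MT-TF, MT-TT and MT-TP have such a neighbour on 1 side only. These counts take no account of the SE, and rows beside each other can share reads and neighbours. They include MT-TF, MT-TD and MT-TP, which were not called (log2 fold changes -0.39, -0.0044 and -0.0083).

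What these rows count needs care. The tRNA genes are 59 to 75 bases long, while the libraries were made of 200 to 500 bp PCR products. A read pair that crosses several genes appeared to be credited to each of them, and the table does not separate a free tRNA from a longer RNA that runs across the tRNA gene. More tRNA and more uncut or differently cut precursor therefore cannot be told apart here. Nor can the strands be separated. Nuclear genes with 1 exon and a mean of at least 100 counts were paired with any gene whose exon wholly held them. In 51 pairs on opposite strands, the inner gene's counts per kb were a median of 1.09 times those of the outer gene. In 42 pairs on the same strand the median was 2.55. The floor of 100 counts leaves out silent inner genes and so favours higher ratios. Log2 fold changes within pairs correlated at 0.77 on opposite strands and 0.64 on the same strand. Within this limit, reads appeared to be counted irrespective of strand. A light-strand row can then hold reads of heavy-strand RNA and the reverse.

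Levels per length were compared among tRNA genes only, as RPKM (counts per kb and per 1000000 counts). In control cells the highest were the light-strand genes MT-TC at 3801 ± 544 and MT-TY at 3371 ± 532, followed by MT-TG at 2797 ± 218 and MT-TN at 2647 ± 489 (SD, n = 3). Each of these differed from the next in the order by less than the sum of their SDs. The lowest were MT-TF at 29.2 ± 4.47 and MT-TM at 134 ± 19.99. The 7 genes that rose past 2-fold lay inside this range, from MT-TQ at 216 ± 22.2 to MT-TS2 at 1348 ± 231. Their levels in shtRF cells ran from 419.6 for MT-TQ to 2850.0 for MT-TR. GC content was 23.1% to 48.6% (median 37.1%) in the 14 tRNA genes called higher and 23.5% to 49.3% (median 41.8%) in the other 8, with ranges that overlapped.

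The protein-coding genes were described by complex, starting with complex I, which oxidises NADH and takes 7 subunits from mitochondrial DNA. MT-ND1 was at 1035, 1049 and 900.0 CPM in the control libraries and 1464, 1264 and 1207 CPM in the shtRF libraries (log2 fold change 0.40 ± 0.070 SE, adjusted p = 9.25e-05). MT-ND5 was at 8136, 8185 and 7825 CPM in the control libraries and 9919, 10094 and 9450.0 CPM in the shtRF libraries (log2 fold change 0.29 ± 0.057 SE, adjusted p = 3.46e-04). MT-ND6, the only protein encoded on the light strand, was at 3893, 3977 and 3678 CPM in the control libraries and 4922, 5065 and 4632 CPM in the shtRF libraries (log2 fold change 0.34 ± 0.058 SE, adjusted p = 6.60e-05). All 3 were upregulated with no overlap between the groups. MT-ND2 was at 2227, 2589 and 2127 CPM in the control libraries and 2778, 2712 and 2533 CPM in the shtRF libraries (log2 fold change 0.21 ± 0.067 SE, adjusted p = 0.0166), with overlap, and its call was lost without control replicate 1, control replicate 3 or shtRF replicate 1 (adjusted p 0.101, 0.0897 and 0.0516). The other 3 complex I genes were not called. MT-ND3 was at 613, 588 and 597 CPM in the control libraries and 719.7, 634 and 618 CPM in the shtRF libraries (log2 fold change 0.13 ± 0.059 SE, adjusted p = 0.0817), every shtRF library above every control library. The log2 fold change of MT-ND4L was 0.12 ± 0.073 SE (adjusted p = 0.225) and that of MT-ND4 was 0.04 ± 0.071 SE (adjusted p = 0.721). These last 2 reading frames share 7 bases.

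MT-CYB, cytochrome b of complex III, showed the largest fall among the protein-coding genes. It was at 2114, 2355 and 1983 CPM in the control libraries and 1743, 1652 and 1526 CPM in the shtRF libraries (log2 fold change -0.39 ± 0.066 SE, adjusted p = 5.53e-05). The highest shtRF library lay below the lowest control library. MT-CO1, MT-CO2 and MT-CO3 are the catalytic core of complex IV, cytochrome c oxidase, and they did not move together. MT-CO1 was at 8629, 9133 and 8059 CPM in the control libraries and 7864, 7512 and 6984 CPM in the shtRF libraries (log2 fold change -0.21 ± 0.063 SE, adjusted p = 0.0119), lower without overlap, but not called without control replicate 2 (adjusted p = 0.0683) or shtRF replicate 3 (adjusted p = 0.117). MT-CO3 was at 4945, 4954 and 4807 CPM in the control libraries and 6308, 5795 and 5343 CPM in the shtRF libraries (log2 fold change 0.25 ± 0.062 SE, adjusted p = 0.00306), higher without overlap. MT-CO2 was at 1770.2, 2018 and 1617 CPM in the control libraries and 1769, 1583 and 1458 CPM in the shtRF libraries (log2 fold change -0.17 ± 0.075 SE, adjusted p = 0.081), and its groups overlapped. Its fall was called without control replicate 3 (log2 fold change -0.24, adjusted p = 0.0131), without shtRF replicate 1 (log2 fold change -0.25, adjusted p = 0.01) and with library totals in place of TMM (log2 fold change -0.22, adjusted p = 0.0191). Without a filter on low counts, with upper quartile scaling and with the replicate number as a block the adjusted p was 0.00449, 0.0346 and 0.0466.

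MT-ATP8 and MT-ATP6, subunits of the membrane part of ATP synthase, were not called. MT-ATP8 was at 3043, 3446 and 2806 CPM in the control libraries and 3794, 3309 and 2783 CPM in the shtRF libraries (log2 fold change 0.09 ± 0.086 SE, adjusted p = 0.45), and MT-ATP6 at 7969.9, 8631 and 7788 CPM in the control libraries and 9266, 9224 and 8149 CPM in the shtRF libraries (log2 fold change 0.13 ± 0.064 SE, adjusted p = 0.125). Their reading frames overlap by 46 bases, so some reads belong to both. That shared stretch is shown with the first codon of MT-ATP6 in capitals (GENCODE release 29, GRCh38, MT:8527-8572, + strand).
MT-ATP8 and MT-ATP6 overlap: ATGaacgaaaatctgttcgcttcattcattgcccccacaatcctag

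**Figure D3:**
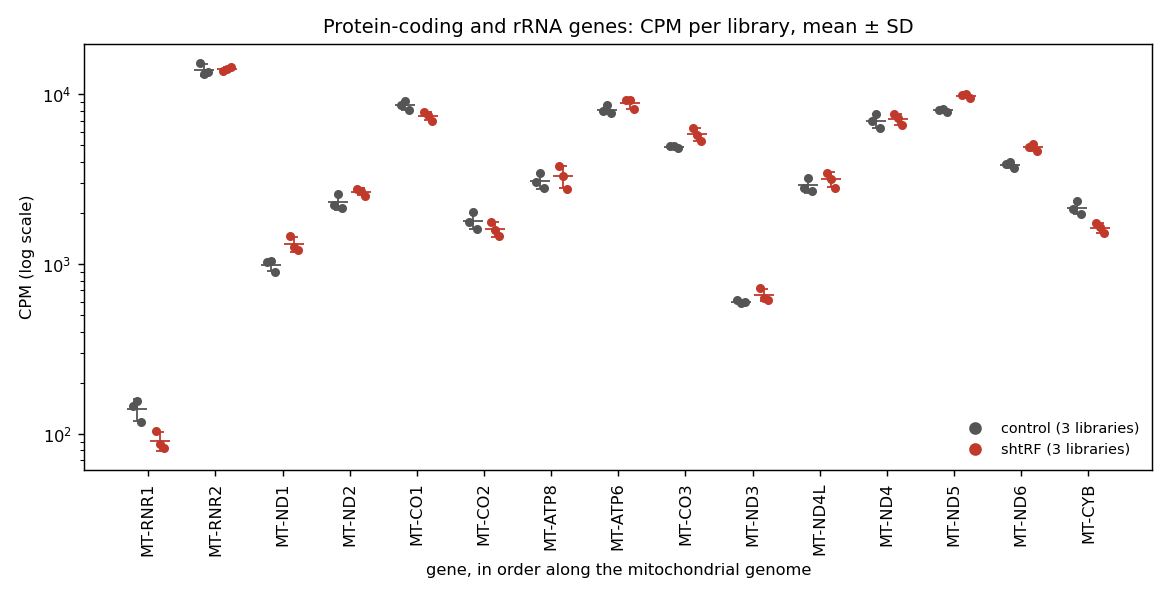
CPM on a log scale for the 13 protein-coding and 2 rRNA genes in genome order, by library (control grey, shtRF red), with the mean and SD over 3 libraries. MT-RNR1, MT-CO1 and MT-CYB lie lower and MT-ND1, MT-CO3, MT-ND3, MT-ND5 and MT-ND6 higher in shtRF libraries, each without overlap.

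As a class, the protein-coding genes took, of all counts, 5.51, 5.93 and 5.18% in the control and 6.21, 5.70 and 5.28% in the shtRF libraries, with overlapping ranges. Within that class the composition shifted by small amounts. Of the mitochondrial protein-coding counts MT-CO1 made up 15.8% ± 0.0998 in control and 12.8% ± 0.125 in shtRF cells, and MT-CYB made up 3.95% ± 0.107 in control and 2.81% ± 0.0231 in shtRF cells. MT-CO2 went from 3.31% to 2.74%. In the other direction MT-ND5 made up 14.8% ± 0.595 in control and 16.9% ± 0.701 in shtRF cells, and MT-ND6 made up 7.09% ± 0.179 in control and 8.36% ± 0.326 in shtRF cells. MT-ND1 went from 1.83% to 2.25%, MT-CO3 from 9.03% to 9.96% and MT-ND2 from 4.25% to 4.59%. For these 8 genes the shares of the 2 groups did not overlap, while those of MT-ATP8, MT-ATP6, MT-ND3, MT-ND4L and MT-ND4 did. These shares do not depend on how libraries are scaled, and they must add up to the whole, so a lower share of some raises the others.

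**Figure D4:**
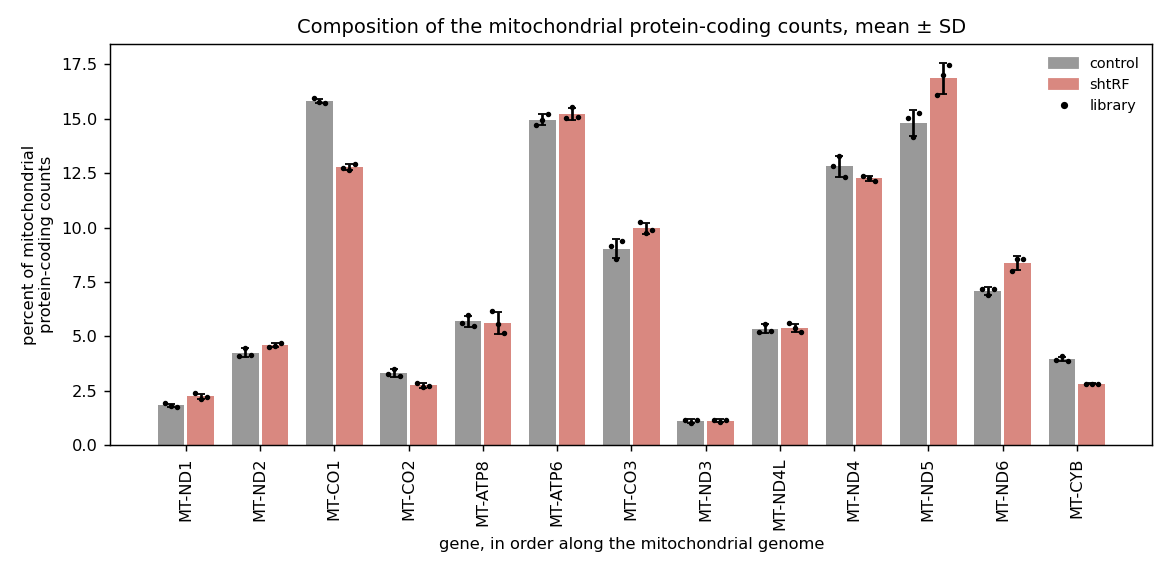
Share of the mitochondrial protein-coding counts taken by each of the 13 genes (percent, y axis from 0). Bars are means of control (grey) and shtRF (red) libraries with the SD over 3 libraries, and dots are libraries. MT-CO1 drops from 15.8% to 12.8% and MT-CYB from 3.95% to 2.81%, and MT-ND5 climbs from 14.8% to 16.9%.

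Per 100 counts of the 12 heavy-strand protein-coding genes, MT-ND6 had 7.63 ± 0.208 in control and 9.13 ± 0.387 in shtRF cells, without overlap. The RNA of MT-ND5 is known to run on beyond its reading frame, opposite MT-ND6. Per 100 counts of MT-ND5 alone, MT-ND6 had 47.8 ± 0.795 in control and 49.6 ± 0.580 in shtRF cells, a smaller relative difference, though again without overlap. Since reads of both strands appeared to be counted alike, the higher MT-ND6 row cannot be told apart from the higher RNA of MT-ND5. Of the 9 light-strand genes in all, 3 were higher, 1 lower and 5 not called, beside 20.6% higher and 18.9% lower of all genes tested.

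Of the rRNA genes, MT-RNR1 was called and MT-RNR2 was not. MT-RNR1, the 12S rRNA of the small mitochondrial ribosomal subunit, was at 147, 157 and 117 CPM in the control libraries and 104, 86.8 and 82.8 CPM in the shtRF libraries (log2 fold change -0.62 ± 0.087 SE, adjusted p = 6.11e-06). MT-RNR2, the 16S rRNA of the large subunit, was at 15216, 13217 and 13459 CPM in the control libraries and 13734, 14148 and 14472 CPM in the shtRF libraries (log2 fold change 0.02 ± 0.063 SE, adjusted p = 0.876). All shtRF libraries were below all control libraries for MT-RNR1, and the groups overlapped for MT-RNR2. MT-RNR1 was scarce. Per 1000 MT-RNR2 counts it had 10.1 ± 1.64 in control and 6.49 ± 0.991 in shtRF cells, and as RPKM it was at 149.8 ± 23.1 beside 9118 ± 704 in control cells. The libraries came from an mRNA kit, and how well it keeps each rRNA is not known here, so these levels describe the libraries and not the ratio of the rRNAs in the cell. Per 100 protein-coding counts, rRNA as a class had 26.01 ± 2.66 in control and 24.5 ± 2.26 in shtRF cells, with overlap, and tRNA had 3.24 ± 0.125 in control and 3.97 ± 0.129 in shtRF cells, without overlap. Of all counts, the 37 genes together took 7.25, 7.50 and 6.71% in the control and 7.84, 7.29 and 6.92% in the shtRF libraries. That total did not separate the groups. In such data the amount of RNA per genome copy and the number of genome copies per cell cannot be told apart.

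Copies of mitochondrial DNA inserted in nuclear chromosomes can attract mitochondrial reads. Copies of protein-coding and rRNA genes were searched by symbol, and copies of tRNA genes were not. The table held 151 such pseudogene rows. Of the 29 tested, 1 was called higher (2 without control replicate 3 or without shtRF replicate 2) and 6 lower. Across all genes tested 20.6% were higher and 18.9% lower. Among the pseudogene rows 111 had at most 10 counts in each library. The most abundant was MTATP6P1 on chromosome 1 at 1685 ± 59.6 CPM in control and 1643 ± 48.7 CPM in shtRF cells (log2 fold change -0.04, adjusted p = 0.646), followed by MTND2P28 at 319 ± 37.1 CPM in control and 283 ± 40.2 CPM in shtRF cells (log2 fold change -0.17, adjusted p = 0.108) and MTCO1P12 at 65.3 ± 6.72 CPM in control and 52.7 ± 4.55 CPM in shtRF cells (log2 fold change -0.31, adjusted p = 0.00143). The first copy had 20.8 counts per 100 MT-ATP6 counts in control and 18.6 in shtRF libraries, and MTND2P28 had 13.8 and 10.5 per 100 MT-ND2 counts, and the table does not show which of these reads came from mitochondrial RNA. When the chromosome 1 copies were added to their mitochondrial genes, an alternative chosen after seeing the data, MT-ND2 was no longer called (log2 fold change 0.16, adjusted p = 0.065), and the other genes kept their side of the threshold. The single copy called higher was MTND1P23, at 6.004 ± 1.001 CPM in control and 13.6 ± 0.846 CPM in shtRF cells (log2 fold change 1.17, adjusted p = 1.29e-08), named here after its values were seen.

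Nuclear genes that read, cut and keep mitochondrial RNA were taken from lists. Of the 11 genes of mitochondrial transcription 5 were called higher, 1 lower and 5 neither (median log2 fold change 0.11). Among all genes tested 20.6% were higher and 18.9% lower. POLRMT, the mitochondrial RNA polymerase, was not called, at 46.8, 47.7 and 46.4 CPM in the control libraries and 48.5, 45.99 and 49.1 CPM in the shtRF libraries (log2 fold change 0.03, adjusted p = 0.741). TFAM, which packages mitochondrial DNA and opens its promoters, was higher at 74.4, 83.4 and 79.1 CPM in the control libraries and 87.9, 94.7 and 90.8 CPM in the shtRF libraries (log2 fold change 0.21 ± 0.056 SE, adjusted p = 0.00523), a call lost without control replicate 1 (adjusted p = 0.0502). TFB2M, the factor that melts the promoter, had a log2 fold change of 0.01 (adjusted p = 0.92), and its paralogue TFB1M, an rRNA methyltransferase, had one of -0.24 (adjusted p = 0.0896). TEFM, the elongation factor, was higher at 7.60 ± 0.461 CPM in control and 9.73 ± 0.541 CPM in shtRF cells (log2 fold change 0.35, adjusted p = 0.00443). In the MTERF family MTERF2 (log2 fold change 0.39, adjusted p = 2.30e-05) and MTERF4 (log2 fold change 0.28, adjusted p = 2.58e-04) were higher, whereas MTERF1 and MTERF3 had log2 fold changes of -0.08 and 0.11 (adjusted p = 0.53 and 0.414). C10orf2, the helicase Twinkle, was called higher with overlapping groups (log2 fold change 0.29, adjusted p = 0.013) and lost the call when control replicate 1, control replicate 2, shtRF replicate 1 or shtRF replicate 3 was left out (adjusted p from 0.0511 to 0.138). MRPL12, a ribosomal protein that also binds POLRMT, was lower at 18.5 ± 1.29 CPM in control and 12.2 ± 1.01 CPM in shtRF cells (log2 fold change -0.60, adjusted p = 4.65e-06).

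Of the 14 genes of RNA processing 2 were higher, 3 lower and 9 not called (median 0.04). All genes tested gave 20.6% higher and 18.9% lower. ELAC2, which cuts the 3′ end of mitochondrial tRNAs, was at 61.7, 60.4 and 62.7 CPM in the control libraries and 73.8, 76.6 and 82.1 CPM in the shtRF libraries (log2 fold change 0.33 ± 0.055 SE, adjusted p = 5.17e-05), without overlap. Mitochondrial RNase P, which cuts the 5′ end, has 3 proteins. TRMT10C was at 40.3 ± 3.56 CPM in control and 35.5 ± 0.456 CPM in shtRF cells (log2 fold change -0.18, adjusted p = 0.0285), HSD17B10 had a log2 fold change of -0.07 (adjusted p = 0.454), and KIAA0391, also known as PRORP and the subunit that cuts, had one of 0.15 (adjusted p = 0.0317). The TRMT10C call was lost on leaving out any 1 library other than control replicate 1 (adjusted p from 0.0711 to 0.133), and that of KIAA0391 on leaving out control replicate 1 or 2 or shtRF replicate 1 or 3 (adjusted p from 0.0717 to 0.146). TBRG4 (FASTKD4), which keeps several mitochondrial mRNAs stable, was lower (log2 fold change -0.29, adjusted p = 0.00378), as was GRSF1, an RNA-binding protein of the granules where this RNA is processed (log2 fold change -0.22, adjusted p = 0.00473). TRNT1, which adds the CCA tail to tRNAs, was not called (log2 fold change 0.05, adjusted p = 0.623). The remaining 7 genes, PTCD1, PTCD2, FASTK, FASTKD1, FASTKD2, FASTKD3 and FASTKD5, had log2 fold changes from -0.26 to 0.18 and were not called.

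Beside each list in this paragraph stand the 20.6% higher and 18.9% lower of all genes tested. Of the 18 genes of RNA stability, polyadenylation and decay 3 were higher, 7 lower and 8 not called (median -0.15). LRPPRC, which binds and stabilises mitochondrial mRNAs, fell the most among them, with 129, 133 and 128 CPM in the control libraries and 89.9, 88.4 and 88.4 CPM in the shtRF libraries (log2 fold change -0.55 ± 0.051 SE, adjusted p = 1.59e-08). REXO2, an exonuclease that degrades very short RNAs in mitochondria, was at 65.2, 73.3 and 71.4 CPM in the control libraries and 95.9, 110.0 and 107 CPM in the shtRF libraries (log2 fold change 0.58 ± 0.061 SE, adjusted p = 1.11e-07). Neither gene overlapped between the groups. NGRN, needed for the 16S rRNA, was higher (log2 fold change 0.36, adjusted p = 2.95e-05). Of 24 genes of rRNA modification and ribosome assembly 2 were higher and 3 lower, among them C1QBP with a log2 fold change of -0.46 (adjusted p = 4.59e-07) and METTL15, a methyltransferase of the 12S rRNA, with one of 0.42 (adjusted p = 7.80e-05). Of 21 genes of tRNA modification 2 were higher and 8 lower (median -0.08). The smallest adjusted p values there belonged to QTRT2, of queuosine synthesis (-0.34, adjusted p = 3.06e-04), RPUSD4, a pseudouridine synthase (-0.37, adjusted p = 9.06e-04), and CDK5RAP1, a methylthiotransferase of tRNAs (0.25, adjusted p = 0.00114), all as log2 fold changes.

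Of 24 genes of mitochondrial DNA maintenance 7 were higher and 8 lower, beside 20.6% higher and 18.9% lower of all genes tested. RRM2B, a subunit of ribonucleotide reductase, had a log2 fold change of 0.54 (adjusted p = 5.19e-07), ABAT one of 0.65 (adjusted p = 7.35e-07), and LIG3, the ligase of mitochondrial DNA, one of -0.43 (adjusted p = 7.37e-07). Among 14 regulators of biogenesis 2 were higher and 6 lower. MYC, a transcription factor, was at 20.8, 21.8 and 20.5 CPM in the control libraries and 7.76, 7.18 and 7.72 CPM in the shtRF libraries (log2 fold change -1.48 ± 0.080 SE, adjusted p = 2.51e-12), PPARA, a nuclear receptor of fatty acid oxidation, had a log2 fold change of -1.06 (adjusted p = 3.38e-08), and SIRT3, a mitochondrial deacetylase, one of -0.49 (adjusted p = 2.43e-04). Over all 7 of these lists, each gene taken once, 21 of 112 genes were higher and 30 lower (45.5% called, against 39.5% of all genes tested), with a median log2 fold change of 0.01. MTERF2, TEFM, MTERF4, MRPL12, KIAA0391, PTCD1, LIG3 and NGRN share between 11.6% and 68.2% of their exonic length with other genes, whose reads their counts can hold.

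**Figure D5:**
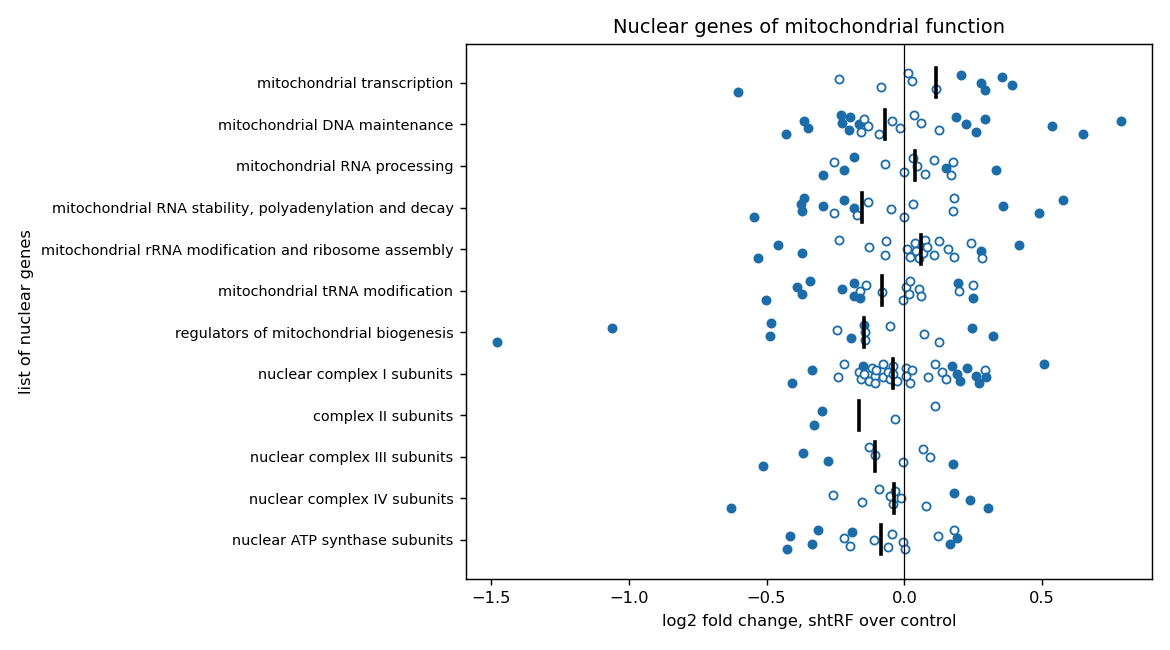
Log2 fold change, shtRF over control (x axis), of each gene in 12 lists of nuclear genes (rows). Filled points have an adjusted p under 0.05, bars mark each list's median, and vertical offsets only separate points. The medians lie between -0.17 and 0.11, with genes on both sides of 0 in every list, and MYC (-1.48) and PPARA (-1.06) are farthest to the left.

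The lists of nuclear subunits of the respiratory complexes and ATP synthase showed changes in both directions. Beside subunits they hold the related genes COX7A2L and ATPIF1. Of the 78 listed genes 14 were higher and 14 lower (35.9% called, against 39.5% of all genes tested), with a median log2 fold change of -0.04. The number higher was 7 without control replicate 1, 8 without shtRF replicate 2 and 9 without shtRF replicate 3, and 7 were higher and 21 lower with library totals in place of TMM. In complex I 8 of 37 were higher and 3 lower, led by NDUFA10 (-0.41, adjusted p = 2.20e-06), NDUFS1 (-0.34, adjusted p = 3.14e-05) and NDUFA3 (0.51, adjusted p = 5.15e-05). Complex II, which has no mitochondrially encoded subunit, had 2 of 4 genes lower, SDHB (-0.30, adjusted p = 9.54e-04) and SDHD (-0.33, adjusted p = 0.0168). In complex III 1 of 9 was higher and 3 lower, beside 20.6% higher and 18.9% lower of all genes tested. The lower ones were UQCRFS1, the Rieske iron-sulphur protein (-0.51, adjusted p = 2.49e-06), UQCRC2 (-0.37, adjusted p = 1.51e-05) and UQCRH (-0.28, adjusted p = 0.00701). In the complex IV list 3 of 12 genes were higher and 1 lower, the subunit-like gene COX7A2L (-0.63, adjusted p = 1.71e-06). COX7C (0.24, adjusted p = 9.73e-04) and COX6C (0.30, adjusted p = 0.00167) were among the higher. In ATP synthase 2 of 16 were higher and 5 lower, among them ATP5A1, its alpha subunit (-0.42, adjusted p = 1.98e-06), and ATP5G2 (-0.33, adjusted p = 0.00815), with ATP5J higher (0.19, adjusted p = 0.00635). All values in brackets are log2 fold changes. The calls of SDHD, UQCRH and ATP5J were each lost on leaving out 1 or more libraries, SDHD without control replicate 3 or shtRF replicate 1 (adjusted p from 0.0658 to 0.114), UQCRH and ATP5J without shtRF replicate 2 (UQCRH adjusted p = 0.0748, ATP5J adjusted p = 0.0504). NDUFS1, SDHD and ATP5J share between 11.7% and 23.1% of their exonic length with other genes.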

How the data were processed

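The authors deposited a table of read counts per gene for the 6 libraries, which per the labels were stranded mRNA libraries sequenced as read pairs. The submitters' processing notes list Trimmomatic 0.36, featureCounts of Subread 1.5.1, edgeR 3.12.1 and the build GRCh38, and the aligner is not given in the sources used here. A deposited table of RPKM values was not used, and RPKM was recomputed from the counts. The count totals per library ran from 63541413 to 78917459. Among counts of 1 to 4, 74.2% to 77.1% were even, against 49.7% to 50.7% of counts of 1000 or more, so both mates of a pair appeared to be counted and a small count stands for fewer fragments.

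Counts were tested with edgeR 4.0.16 (R 4.3.3) after filterByExpr with its minimum count of 10 and TMM scaling, by the quasi-likelihood test with group as the only term, with Benjamini-Hochberg adjustment over the 19628 genes tested. Calls needed an adjusted p under 0.05. TMM factors lay between 0.961 and 1.03, and the common dispersion gave a coefficient of variation of 7.56%. Shares and ratios were computed per library and not tested. On simulated data for this comparison (19338 genes) edgeR recovered 41 of 50 genes changed 1.5-fold and 50 of 50 changed 2-fold. It recovered 49 of 50 changed 3-fold and 50 of 50 changed 4-fold, with 6 false calls. Only these genes were changed there, with dispersions fitted to the same libraries, whereas 39.5% of all genes tested were called in the real data. The recovery and false calls may therefore not carry over.

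The mitochondrial genes and the nuclear gene lists (191 genes, 19 matched by an older symbol) were chosen with earlier results of these data known. The text names all protein-coding, rRNA and tested tRNA genes of the mitochondrial genome, all genes of the transcription and RNA processing lists, the 3 genes with the smallest adjusted p under 0.05 of each other list and the 3 most abundant pseudogenes. Coordinates of all 37 genes equalled those of GENCODE release 29, from which sequences were read. Alternatives were RLE, upper quartile and library-total scaling, scaling without the mitochondrial rows, other filters, halved counts, DESeq2 1.42.0, limma-trend (limma 3.58.1) on log2(RPKM + 1), the replicate number as a block, each library left out, and chromosome 1 copies summed in, the last chosen after seeing the data. Marker genes of the line and of other cell types were looked up in the same table, and 1 of them is not reported here.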

Additional observations from a re-analysis of the deposited data

How the results depend on the processing

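Over 17 alternatives, 27 of the 37 mitochondrial genes kept their call, among them MT-RNR1, MT-CYB, MT-ND1 and the 7 tRNA genes that rose past 2-fold, and no called log2 fold change reversed. Of 629 values 604 were on the same side of the threshold in the same direction, 17 were no longer called and 8 became called. Of 949 values of 56 nuclear genes named, 27 were no longer called and 11 became called, with none reversed. With limma-trend on log2(RPKM + 1), 1 protein-coding gene was called higher and 1 lower, since MT-ND2, MT-ND5, MT-ND6, MT-CO3 and MT-CO1 lost their calls. MT-TL1 and MT-TK lost theirs too, which left 12 tRNA genes higher. In the same setting 5 nuclear respiratory-chain genes were called higher and 16 lower. That count of higher genes was 7 with library totals (21 lower) and 7 with upper quartile scaling (20 lower). For the lists of mitochondrial gene expression, library totals gave 17 higher and 38 lower in place of 21 and 30. The cause was not tested. Leaving out 1 library at a time gave 1 to 3 protein-coding genes lower, 1 to 2 tRNA genes lower, 0 to 1 heavy-strand tRNA genes lower, 7 to 15 respiratory-chain genes higher and 1 to 2 pseudogenes higher. With the chromosome 1 copies summed in, 0 of the remaining pseudogenes were higher by edgeR, because the copy called higher had joined MT-ND1.

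Ratios between classes moved with the unit by construction. As sums of RPKM, rRNA was 12.2 per 100 protein-coding in control and 11.3 in shtRF cells, tRNA 34.6 and 42.2, and MT-ND6 10.9 and 12.9 per 100 heavy-strand protein-coding. Without the genes with overlapping reading frames these values were 42.5 and 39.7, 5.29 and 6.46, and 13.1 and 15.7. Each kept its direction.

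The replicate numbers did not pair the libraries, since deviations of same-numbered libraries correlated at 0.018, -0.0029 and 0.0045. With the number as a replicate block, 19 mitochondrial genes were higher and 5 lower, MT-CO2 being added at an adjusted p of 0.0466, and over all genes 4123 were higher and 3776 lower. Depth limits mainly MT-TF, at 1.11 to 2.35 CPM.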

Other observations

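Across the 22 mitochondrial tRNA genes, the log2 fold change was only weakly related to what their sequence or level gives. Its Spearman correlation was -0.321 with GC content, -0.156 with gene length and -0.238 with the log2 RPKM in control cells (Pearson -0.279, -0.232 and -0.106). These are descriptions over genes that share their libraries and their precursor RNAs, and genes are not independent replicates.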
